A study of Mus musculus with 6 samples.

Results

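The 9 genes described here are Foxo3, Cdkn1b, Tsc1, Tsc2, Pdpk1, Akt1, Mtor, Rptor and Rps6kb1. They belong to the phosphoinositide 3-kinase (PI3K) pathway that controls whether the resting oocytes of primordial follicles stay dormant. They were taken as a named list, and every array probe that the platform annotation assigns to one of them was read. This gave 25 probes for 8 of the 9 genes, out of 45281 probes on the array and 19053 genes with a named probe. Rps6kb1, which encodes the S6 kinase downstream of mTOR, had no probe under its name and was not analysed here. Expression was read on 6 arrays of the type Illumina Mouse WG-6 v2.0, of which 3 hold spermatogonial stem cells (SSC), the cells that maintain sperm production, taken from testes of CD1 mice aged 6 days. The other 3 hold female germline stem cells (FGSC), ovarian cells described as dividing germ cells, taken from ovaries of CD1 mice at 3 days of age. Neither group carries a labelled treatment or mutation, and the enrichment and culture of the cells are not given in the sources used here. Since sex, organ and age all change at once between SSC and FGSC, what each contributes cannot be told apart. The labels do not state that the replicates came from separate animals or isolations, and the p-values therefore reflect the variation among these arrays alone, which may be technical.

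In the oocyte, PI3K signalling downstream of growth factor receptors such as Kit recruits the kinases Pdpk1 and Akt1 to the membrane. Active Akt1 phosphorylates the transcription factor Foxo3, which then leaves the nucleus, and it inhibits the Tsc1 and Tsc2 complex, which otherwise restrains the kinase mTOR and its partner raptor (Rptor). In mice, loss of Foxo3, Tsc1, Tsc2 or Cdkn1b in the germ line or in the whole animal activates primordial follicles too early. Much of this regulation acts on proteins, by phosphorylation and location, which an RNA array does not measure.

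The arrays detected 18574 to 18823 probes in SSC and 16198 to 17231 in FGSC, and the median deposited signal of each array lay between 94.1 and 98.6, close to background. FGSC replicate 3 had the fewest detected probes and stood apart on the second principal component (8.64% of the variance), at 41.6 against -26.8 and -18.3 for FGSC replicates 1 and 2. The labels were set against markers of each cell type. Genes of oocytes read high on the FGSC arrays (Nlrp5 at 13.58 ± 0.06 and Dppa3 at 13.11 ± 0.14, normalized log2 signal, SD, n = 3) and close to background on the SSC arrays (4.76 and 4.92). The spermatogonial gene Ret read 9.82 in SSC and 4.95 in FGSC, and 8 of the 10 tested spermatogonial markers were lower in FGSC. Pou3f1, another of these markers, went the other way, at 7.5 in SSC and 8.5 in FGSC. Gfra1, also a spermatogonial gene, had no probe that could be tested. A probe was tested where its detection p-value lay below 0.05 on 3 or more of the 6 arrays (a kept probe). Deposited signals are given on the linear scale of the file. A level is the mean normalized log2 signal of 3 arrays with its SD, and each difference is the log2 level in FGSC less that in SSC, with its standard error (SE) from the limma fit. An offset of 16 had been added before the log, so a fold made from these values understates the change of a dim probe. A probe was called at an adjusted p under 0.05 (limma, Benjamini-Hochberg over all 18860 kept probes). Levels of different probes were not set against each other.

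Of the 25 probes, 14 were kept, and they read 7 genes. Pdpk1, Tsc2 and Cdkn1b were higher in FGSC, 1 probe of Mtor was lower, and the probes of Tsc1 went both ways. In all, 5 probes rose, 2 fell and 7 were not called. Over all kept probes 59.0% were called, 29.4% higher and 29.6% lower in FGSC, so a called share of 7 in 14 (50%) is near the background and is no result about these genes. The median difference of the 14 probes was 0.29, against 0.0009 over all kept probes. The values of the groups did not overlap in 8 of the 14 probes (57.1%), 6 with FGSC above SSC and 2 with FGSC below, while 68.7% of all kept probes did not overlap. All 14 were detected in both groups, and none of the 25 was an irregular probe, that is, one whose detection p-value departs from that of probes of like signal. In such bulk samples, fewer cells of a type and less RNA per cell cannot be told apart.

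**Figure D1:**
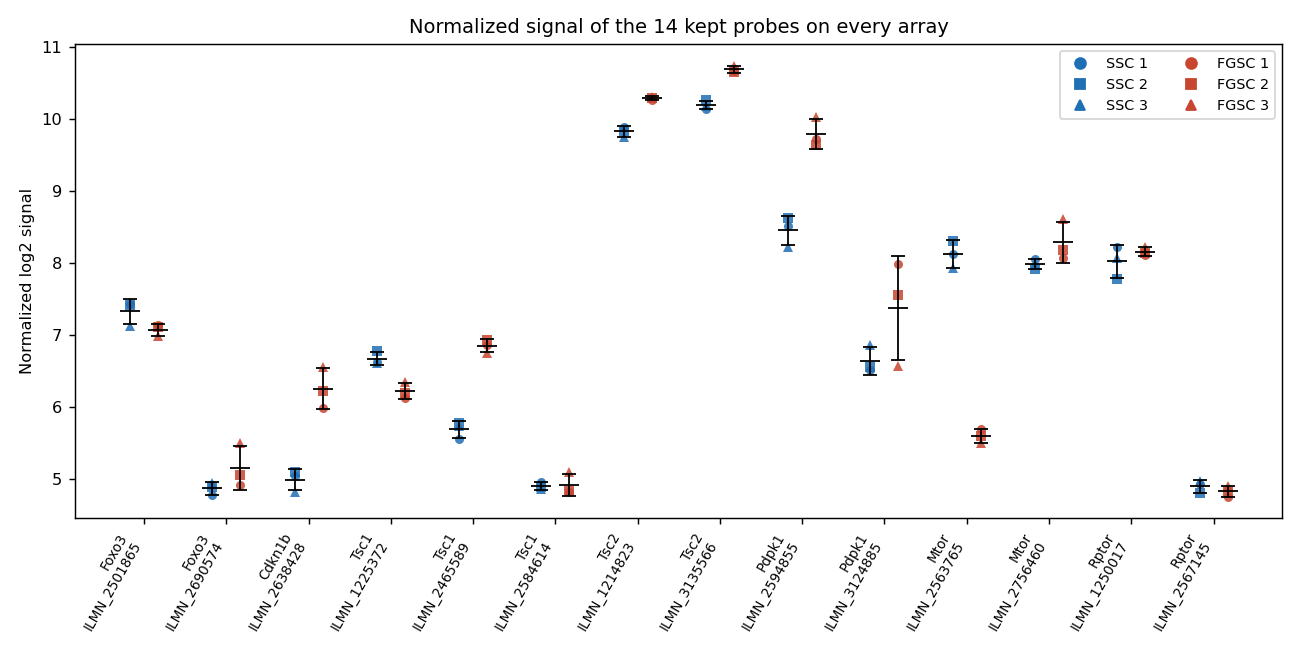
Normalized log2 signal of each of the 14 kept probes on every array, with SSC in blue, FGSC in red and marker shapes for replicates 1 to 3. Black bars are the mean and SD over 3 arrays. The largest separation is that of the Mtor probe ILMN_2563765, at 8.12 in SSC and 5.60 in FGSC.

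**Figure D2:**
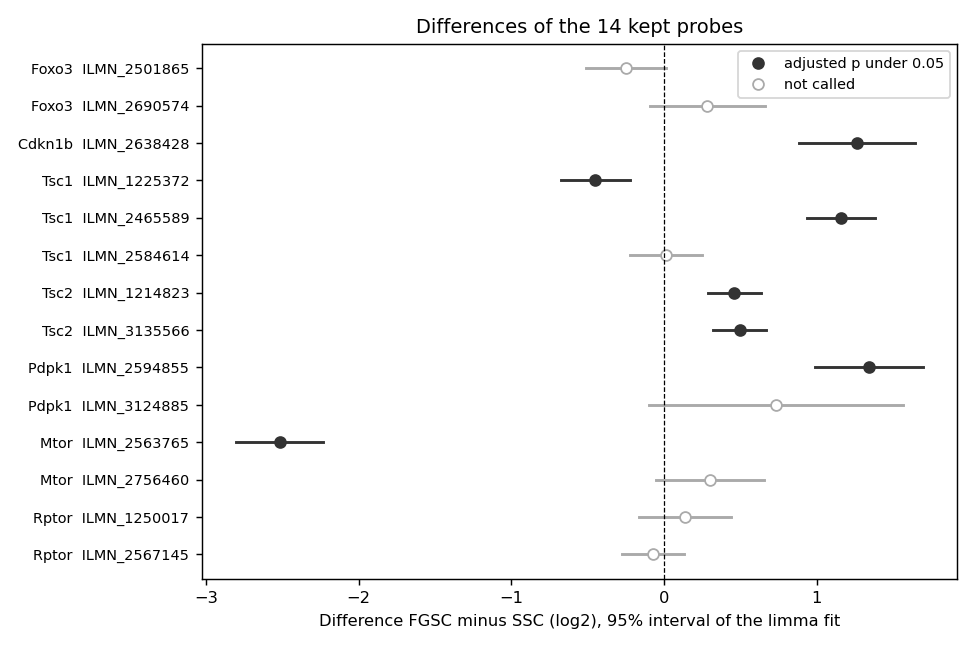
Difference FGSC minus SSC on the log2 scale for each of the 14 kept probes, with the 95% interval of the limma fit. Filled points passed an adjusted p of 0.05 and open points did not. Called differences run from -2.52 (Mtor) to 1.34 (Pdpk1).

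The promoters of Cdkn1b, Pdpk1 and Tsc2 are shown because these genes were called higher in FGSC with no kept probe called in the other direction. Each is a 300-base window around the annotated start, from RefSeq on build GRCm38.p6, written 5′ to 3′ on the strand of the gene. Cdkn1b lies at chr6:134920151-134920450 on the plus strand, Pdpk1 at chr17:24141545-24141844 on the minus strand and Tsc2 at chr17:24632578-24632877 on the minus strand. Capitals mark matches, on either strand, to 10 motifs chosen after the expression values were known.
Cdkn1b: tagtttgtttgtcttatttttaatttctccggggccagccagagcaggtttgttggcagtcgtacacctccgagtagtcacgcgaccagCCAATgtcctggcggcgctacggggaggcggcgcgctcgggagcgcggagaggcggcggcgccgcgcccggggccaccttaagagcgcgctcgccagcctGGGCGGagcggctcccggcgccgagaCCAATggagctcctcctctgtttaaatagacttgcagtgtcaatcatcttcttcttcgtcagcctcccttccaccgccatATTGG
Pdpk1: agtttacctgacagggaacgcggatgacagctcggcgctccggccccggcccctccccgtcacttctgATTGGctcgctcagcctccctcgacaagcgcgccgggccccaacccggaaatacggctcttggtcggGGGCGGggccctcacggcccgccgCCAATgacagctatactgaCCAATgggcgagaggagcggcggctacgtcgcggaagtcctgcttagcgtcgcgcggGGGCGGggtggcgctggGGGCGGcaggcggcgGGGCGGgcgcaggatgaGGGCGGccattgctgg
Tsc2: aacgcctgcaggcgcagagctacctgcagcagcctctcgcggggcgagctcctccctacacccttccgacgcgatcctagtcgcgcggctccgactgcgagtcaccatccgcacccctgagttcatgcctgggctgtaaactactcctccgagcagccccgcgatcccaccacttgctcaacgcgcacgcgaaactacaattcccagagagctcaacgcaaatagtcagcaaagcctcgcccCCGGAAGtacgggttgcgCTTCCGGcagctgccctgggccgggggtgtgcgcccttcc
The marked letters are CCAAT, the sequence bound by NF-Y. They are also GGGCGG, the GC box bound by Sp factors, and finally CCGGAAG, an Ets factor site. The Cdkn1b window held 3 matches to CCAAT and 1 to the GC box, the Pdpk1 window held 3 and 5, and the Tsc2 window held 2 to the Ets site. Of all 32851 promoter windows, 37.4% held CCAAT, 35.7% the GC box and 8.86% the Ets site. The window holds 30 CpG for Cdkn1b, 37 for Pdpk1 and 29 for Tsc2, against a median of 7 and a 90th percentile of 31 over all windows. For the genes not shown it holds 35 for Foxo3, 42 and 8 for Akt1, 21 for Mtor, 20 for Tsc1, 19 for Rps6kb1 and 13 for Rptor. Among the 11 windows of the 9 genes, 3 held CCAAT, 5 the GC box and 2 the Ets site. The Foxo core GTAAACA, in 3.65% of all windows, was in 1 of the 11 windows of the 9 genes, a window of Akt1. The other motifs were in none of the 11. These were the E-box CACGTG (7.15% of all windows), the homeobox element TAATTG (8%), the AP-1 site TGAGTCA (5.2%), the serum response element core (0.0639%), the cAMP response element TGACGTCA (1.79%) and the NRF1 site (0.971%). Pdpk1 has another annotated start whose window holds 1 CpG and none of the 10 motifs. A match describes these letters and is not a binding site.

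Foxo3, the forkhead factor that holds primordial follicles at rest, had 3 probes, of which 1 was bright on every array. Probe ILMN_2501865 gave signals of 284, 245 and 213 in SSC replicates 1 to 3 and 236, 226 and 175 in FGSC replicates 1 to 3. SSC replicate 3 lay within the FGSC range, so the groups overlapped. Normalized levels were 7.33 ± 0.17 (SD, n = 3) in SSC and 7.08 ± 0.08 in FGSC, a difference of -0.25 ± 0.11 (SE) with a 95% interval from -0.51 to 0.01, and the limma test did not call it (adjusted p = 0.0884). This call turned on single arrays, since without SSC replicate 3 the difference was -0.35 (limma adjusted p = 0.0198), and with array weights, which count arrays of lower spread more, it was -0.28 (limma adjusted p = 0.011). The second probe, ILMN_2690574, was barely above background, at 99.5, 102 and 106 in SSC and 105, 107 and 112 in FGSC, and showed 0.28 ± 0.16 (limma adjusted p = 0.162). It pointed the other way, but the difference between the 2 probes was not called either (0.54 ± 0.23, limma adjusted p = 0.116), although it was with array weights (0.48, limma adjusted p = 0.0153). The remaining probe, ILMN_2439078, lay between 85.9 and 89.7 and was detected on no array.

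Cdkn1b encodes p27, an inhibitor of cyclin-dependent kinases whose gene Foxo factors are known to activate in other cells. It was higher in FGSC on the single one of its 3 probes that was detected. Probe ILMN_2638428 gave 115, 111 and 99.3 in SSC and 149, 156 and 149 in FGSC. All FGSC arrays lay above all SSC arrays, where the signal was close to background and the detection p-value reached 0.0406. The level rose from 4.99 ± 0.15 to 6.26 ± 0.28 (SD, n = 3), a difference of 1.27 ± 0.16 (SE) or 2.41-fold (limma adjusted p = 0.000600). It was called in each of the 14 alternative settings in which the probe was tested, at 0.51 to 1.38. The other 2 probes, ILMN_1228598 and ILMN_2923960, were detected on no array, at 86.6 to 96.3 and 87.9 to 98.7. All 3 probes are annotated to the same transcript, and the place of each along it was not used here.

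Tsc2 encodes tuberin, the part of the TSC complex that switches off the small GTPase Rheb, and it was higher in FGSC on both of its detected probes. Probe ILMN_3135566 gave 1325, 1169 and 1051 in SSC and 1983, 1893 and 1555 in FGSC. The lowest FGSC array exceeded the highest SSC array. Its level rose by 0.50 ± 0.07 (SE), from 10.19 ± 0.06 to 10.69 ± 0.05 (SD, n = 3), which is 1.41-fold (limma adjusted p = 0.00124). Probe ILMN_1214823, annotated to another transcript of the gene, gave 1143, 908 and 822 in SSC and 1542, 1516 and 1152 in FGSC. Its levels did not overlap between the groups either, and it rose by 0.46 ± 0.07 (limma adjusted p = 0.00182). The difference between these 2 probes was -0.04 ± 0.11, among the smaller probe differences, since 94.2% of all probe pairs of a gene differed by at least as much. With median scaling, which sets each array to the same median in place of the same distribution, the second probe was no longer called (0.55, limma adjusted p = 0.0783), while the first was. The remaining probe, ILMN_2656924, lay at 90.9 to 100.96 and was detected on 1 SSC array.

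Tsc1 encodes hamartin, which stabilises tuberin, and its probes gave calls in opposite directions. Probe ILMN_2465589, annotated to the RefSeq transcript, gave 139, 136 and 135 in SSC and 210, 210 and 160 in FGSC. Every FGSC array was above every SSC array, with FGSC replicate 3 lowest of the 3. The level rose by 1.16 ± 0.09 (SE), from 5.69 ± 0.12 to 6.86 ± 0.09 (SD, n = 3), or 2.24-fold (limma adjusted p = 7.66e-05). Probe ILMN_1225372, annotated to the cDNA AK083363, gave 201, 188 and 175 in SSC and 156, 154 and 139 in FGSC. Here every FGSC array was below every SSC array. The level fell by 0.45 on the log2 scale (SE 0.09), from 6.68 ± 0.10 to 6.23 ± 0.12 (SD, n = 3), which is 1.37-fold lower (limma adjusted p = 0.00621). Both calls held in each of the 15 alternative settings, at 0.52 to 1.24 and at -0.72 to -0.21. A probe annotated to a further cDNA, ILMN_2584614, stayed at 99.2 to 111 on all arrays and showed 0.01 ± 0.10 (limma adjusted p = 0.928), a sign that turned with median scaling (-0.10). ILMN_2423383, the other probe of the RefSeq transcript, was detected on no array.

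Pdpk1 encodes the kinase PDK1, which phosphorylates Akt in its activation loop and also activates S6 kinase. Probe ILMN_2594855 gave 509, 451 and 354 in SSC and 1068, 969 and 951 in FGSC. The groups were far apart on the deposited scale, before any normalization. The level rose by 1.34 ± 0.15 (SE), from 8.45 ± 0.21 to 9.80 ± 0.21 (SD, n = 3), or 2.54-fold (limma adjusted p = 0.000337), and it was called in all 15 alternative settings. Probe ILMN_3124885, annotated to another transcript, gave 192, 173 and 191 in SSC and 370, 281 and 150 in FGSC. FGSC replicates 1 and 2 were above every SSC array, and FGSC replicate 3 was below all of them. The difference was 0.73 ± 0.35 with a 95% interval from -0.10 to 1.57 and was not called (limma adjusted p = 0.112), whereas without FGSC replicate 3 it was 1.12 (limma adjusted p = 0.00144) and with array weights 0.99 (limma adjusted p = 0.00111). Akt1, the kinase between Pdpk1 and both Foxo3 and Tsc2, was read by 1 probe, ILMN_1213935. It stayed at 89.8 to 93.1 on all 6 arrays, with no detection p-value under 0.453, so this probe was not above background in either group. A difference was not detectable, and a probe at background does not show that Akt1 was not expressed. Tsc2 and Mtor each had a probe near background beside bright probes of the same gene.

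Mtor encodes the kinase at the centre of the mTORC1 and mTORC2 complexes, and its 2 detected probes disagreed most of all the genes here. Probe ILMN_2563765, annotated to the cDNA AK036004, gave 408, 381 and 306 in SSC and 135, 126 and 112 in FGSC. The lowest SSC array had more signal than any FGSC array by a wide margin. The level fell by 2.52 on the log2 scale (SE 0.12), from 8.12 ± 0.19 to 5.60 ± 0.10 (SD, n = 3), which is 5.73-fold lower in FGSC (limma adjusted p = 8.07e-06). Probe ILMN_2756460, annotated to the RefSeq transcript, gave 394, 313 and 316 in SSC and 390, 392 and 369 in FGSC. The deposited signals of the groups overlapped, while the normalized levels, 7.99 ± 0.07 in SSC and 8.29 ± 0.28 in FGSC, did not. The difference of 0.30 ± 0.15, with a 95% interval from -0.05 to 0.65, was not called (limma adjusted p = 0.122). The RefSeq transcript has another probe, ILMN_1257068, which lay at 93.5 to 101.3 and was detected on no array.

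Rptor encodes raptor, the subunit that brings substrates to mTORC1, and none of its 6 probes gave a call. Probe ILMN_1250017, annotated to the RefSeq transcript, gave 432, 291 and 329 in SSC and 397, 384 and 304 in FGSC. The groups overlapped throughout. Levels were 8.02 ± 0.23 and 8.16 ± 0.06 (SD, n = 3), a difference of 0.14 ± 0.13 (SE) with a 95% interval from -0.17 to 0.44 (limma adjusted p = 0.379). The cDNA probe ILMN_2567145 lay at 97.8 to 109 and showed -0.07 ± 0.08 (limma adjusted p = 0.484). The remaining 4, ILMN_1218033, ILMN_1220256, ILMN_2566658 and ILMN_2588329, were not kept. Across the 11 probes of the 8 genes that were not kept, signals ran from 83.4 to 104, 3 of 66 array values were detected, and with no detection filter the largest absolute difference was 0.05 with 0 called by limma.

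Whether probes of one gene differed was tested on the difference between each further kept probe and the brightest probe of the same gene, within each array, in a limma fit over all 5531 such pairs. Over all pairs 37.3% were called. For Mtor the difference between the probes shifted by -2.82 ± 0.22 between the groups (limma adjusted p = 0.000190), and only 1.12% of all pairs shifted by as much or more. For Tsc1 the RefSeq probe shifted by 1.61 ± 0.14 against the brightest probe (limma adjusted p = 0.000291), a size reached by 7.43% of pairs, and the dimmest kept Tsc1 probe by 0.46 ± 0.12 (limma adjusted p = 0.0219). This last call held in 8 of 13 alternative settings and was lost without SSC replicate 2 (limma adjusted p = 0.0777), FGSC replicate 1 (0.0613) or FGSC replicate 2 (0.0581), and with the authors' processed values (0.0672). The pairs of Tsc2, Rptor, Foxo3 and Pdpk1 were not called. Of the 3850 genes with at least 2 kept probes, 6.16% had one probe called higher and another called lower, and Tsc1 was one of them. These tests compare probes, and which transcripts each probe reads was not measured.

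**Figure D3:**
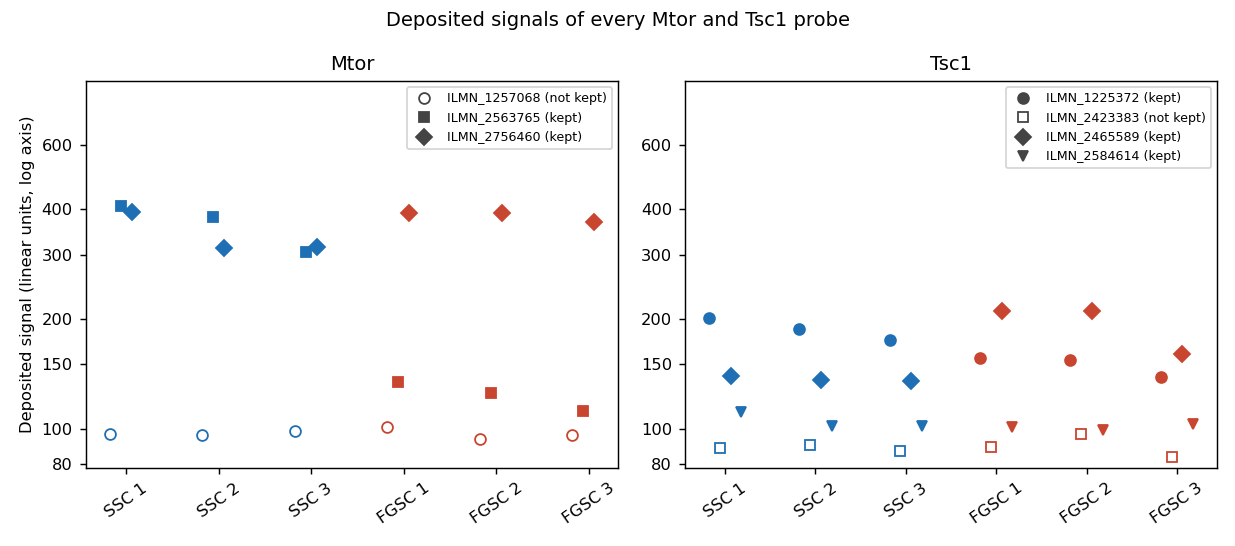
Deposited signals, before normalization, of every Mtor probe (left) and every Tsc1 probe (right) on the 6 arrays, on a log axis. Blue is SSC, red is FGSC, marker shapes are probes, and open markers are probes that were not kept. For Mtor, ILMN_2563765 runs from 408 down to 112 while ILMN_2756460 stays between 313 and 394.

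Beyond the 9 genes, 116 other genes of the pathway were counted in 6 lists, each gene read from its brightest kept probe in the same fit. Of these, 90 were tested, and 30 rose, 24 fell and 36 were not called. The called share of 60% compares with 62.3% over all 10628 genes (30.9% higher and 31.4% lower) and is near it, and the median difference was 0.04 against -0.0026. Every gene of the 6 lists named below kept its direction with median scaling except Eif4a1. With median scaling, which moved the median of all genes to -0.12, 18 of the 90 rose and 23 fell. With detection at 0.01 required on all 6 arrays 31 rose and 12 fell.

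Of the receptors and PI3K subunits 15 of 19 were tested, 7 rose and 5 fell, with a median of 0.32. Kit, the receptor whose ligand wakes primordial oocytes, rose by 3.05 ± 0.16 (SE) to 11.91 ± 0.29 (SD, n = 3), and its other kept probe showed 2.46. Pik3cd, a catalytic PI3K subunit, rose by 2.13 ± 0.12, and of the regulatory subunit genes Pik3r1 rose by 1.10 and Pik3r3 fell by 0.66. Pik3r1 lost its call with median scaling (limma adjusted p = 0.0976). Pik3r2 rose by 1.80 on an irregular probe, and its other probe showed 0.08. Gab1, a docking protein that couples receptors to PI3K, fell by 2.99 (SE 0.07), and the receptor gene Pdgfra fell by 2.67 (SE 0.30) from a variable SSC level of 7.79 ± 0.64. Inpp4a (0.32 ± 0.12) and Inppl1 (-0.29 ± 0.11), both inositol phosphatases, were not called (limma adjusted p = 0.0513 and 0.0598), though the first was without FGSC replicate 1 (0.43, limma adjusted p = 0.015) and the second without SSC replicate 3 (-0.39, limma adjusted p = 0.0258). The other probes of Inppl1 showed 0.28, not called, and -0.42 (limma adjusted p = 0.0342). Kitl, the ligand of Kit, was detected on no FGSC array and so could be tested only because of its SSC signal.

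Among Akt and its other targets 9 of 15 were tested, 2 rose and 4 fell, with a median of -0.22. Akt1s1, which encodes the mTORC1 inhibitor PRAS40, rose by 1.10 ± 0.15 (SE), and Phlpp1, an Akt phosphatase, by 0.79 ± 0.09 from an SSC level of 4.87 near background. The kinase gene Sgk1 fell by 0.60 (SE 0.11) and lost its call with median scaling (-0.65, limma adjusted p = 0.0752). Sgk3 fell by 2.17 (SE 0.12) on its brightest probe, and further probes at -0.64 and -1.30 were also called lower. Another of its probes was called higher (1.28, limma adjusted p = 0.000681), so its direction depends on the probe. The phosphatase subunit Ppp2ca (-0.22 ± 0.09) was not called, but it was in 3 of 16 alternative settings, namely without background correction (limma adjusted p = 0.0372), with an offset of 50 (0.0459) and with array weights (0.0269). The kinase Pkn2 (-0.16 ± 0.24) was not called either, while one of its other probes was called lower (-0.55, limma adjusted p = 0.0065), as was the mean of its probes (-0.24, limma adjusted p = 0.0369). Akt2 had no kept probe. Without any 1 SSC array, or without FGSC replicate 2, the list held 1 or 2 lower genes in place of 4.

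Rheb, the mTOR complexes and their nutrient inputs formed the largest list, with 27 of 30 tested, 11 higher and 4 lower, and a median of 0.32. With median scaling, and also without SSC replicate 2, 7 were higher. Without FGSC replicate 3 the list held 6 lower genes. Nprl2, a subunit of the GATOR1 complex that inhibits mTORC1 when amino acids are scarce, rose by 2.57 ± 0.13 (SE), from 7.05 ± 0.17 to 9.62 ± 0.20 (SD, n = 3), and the other GATOR1 genes Nprl3 and Depdc5 rose by 0.51 and 0.48 and lost their calls with median scaling (limma adjusted p = 0.383 and 0.113). The other probes of Depdc5 showed -0.24 and 0.12 and were not called. Rhebl1, a relative of Rheb, rose by 1.91 ± 0.19, and the Ragulator genes Lamtor1, Lamtor2 and Lamtor4 rose by 0.50, 1.02 and 0.62, with 0.0075 and -0.46 on the other probes of Lamtor2. The Rag GTPases differed among themselves, with Rragc at 0.85, Rragb at -1.04 and Rragd at least 5.89-fold lower in FGSC. This Rragd probe was detected on no FGSC array, so it could be tested only because of its SSC signal. The other probes of Rragb and Rragd were also called lower but by less, at -0.24 and -0.49. Ddit4l fell by 2.69 (SE 0.14) and Ddit4 by 1.63, both stress-induced inhibitors of mTORC1, while the sestrin gene Sesn3 rose by 0.41, a call lost with median scaling (limma adjusted p = 0.128). Mlst8, a subunit of both mTOR complexes, showed -0.25 ± 0.11 (limma adjusted p = 0.0976), which was called without FGSC replicate 3 (-0.31, limma adjusted p = 0.0468). Flcn, another regulator of the Rag GTPases, showed -0.14 ± 0.22 on its brightest probe, which was not called, and 0.56 on its other probe, which was (limma adjusted p = 0.00332). Rictor, the mTORC2 subunit, showed -0.05 on its brightest probe and was not called there, but its 7 other kept probes lay between -1.09 and -0.28 and limma called 6 of them lower, so its count as uncalled depends on the probe.

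Of S6 kinase and translation targets 9 of 14 were tested, 4 rose and 1 fell, with a median of 0.35, but with median scaling 1 rose and 1 fell. Rps6, the ribosomal protein that S6 kinase phosphorylates, rose by 1.23 ± 0.28 (SE). It was read from 1 kept probe at low levels, 5.75 ± 0.43 in SSC and 6.98 ± 0.41 in FGSC (SD, n = 3). The translation repressor Eif4ebp1 rose by 0.55 ± 0.09 (SE). Pdcd4 (0.35 ± 0.10) and the elongation factor Eef2 (0.49 ± 0.11) rose as well, and with median scaling both lost their call, as did Eif4ebp1 (limma adjusted p = 0.118, 0.113 and 0.355 in this order). Pdcd4 also lost it without SSC replicate 1 (limma adjusted p = 0.0508), FGSC replicate 1 (0.0559) or FGSC replicate 2 (0.0625). Eif4ebp2 was read from an irregular probe with a wide SSC spread, 5.74 ± 1.34 (SD, n = 3), and its difference of 1.62 ± 0.62 was not called (limma adjusted p = 0.0608), whereas without SSC replicate 3 it was 2.40 (limma adjusted p = 0.000286). The 1 lower gene, the kinase gene Eef2k (-0.34 ± 0.11), lost its call without SSC replicate 1 or 2 or FGSC replicate 1 or 2. Eif4a1, a translation initiation factor, showed 0.10 ± 0.12, which was called with array weights (0.25, limma adjusted p = 0.0162) and turned to -0.0176 with median scaling.

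Foxo relatives and genes known from other tissues as Foxo targets counted 17 tested of 21, with 3 higher and 6 lower and a median of -0.45. Foxo6 fell by 1.53 (SE 0.09) to a level of 4.92 near background, and Foxo1 showed 0.36 and was not called. Klf2, a transcription factor gene, fell by 3.20 (SE 0.08). The ubiquitin ligase gene Fbxo32 (-1.17 ± 0.15) and the catalase gene Cat (-1.07 ± 0.21) fell too, while Cdkn1a, which encodes the cell cycle inhibitor p21, rose by 0.97. The redox regulator Txnip rose by 0.56 and lost its call with median scaling (limma adjusted p = 0.221), where 1 gene of the list was higher. Gadd45a (-0.49 ± 0.38) and Sod2 (-0.50 ± 0.58) were not called, and their FGSC levels spread widely, by SDs of 0.80 and 1.26. With detection at 0.01 on all 6 arrays the list held 3 higher and 3 lower genes.

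Of the partners of p27 and its degradation factors 13 of 17 were tested, with 3 higher, 4 lower and a median of 0.05. Leaving out FGSC replicate 3 gave 5 higher and 4 lower. Cdk2, a kinase that p27 inhibits, fell by 1.65 (SE 0.14), from 10.16 ± 0.24 to 8.52 ± 0.12 (SD, n = 3), and its 3 other kept probes lay between -1.38 and -0.88. The D-type cyclin genes Ccnd1 and Ccnd2 fell by 1.66 (SE 0.23) and 1.52 (SE 0.35). Of the further probes of Ccnd2, that at -2.03 was called lower and that at 0.91 was called higher (limma adjusted p = 1.44e-05 and 0.00084). Rnf123, a subunit of a ubiquitin ligase for p27, rose by 1.08 ± 0.09 and lost its call with median scaling (limma adjusted p = 0.0589), and Cdkn1c, a relative of Cdkn1b, rose by 0.88, as did the cyclin gene Ccne1, by 0.86. Skp2, which marks p27 for degradation, was detected on no FGSC array and so, like Kitl, could be tested only because of its SSC signal. Cdk4 (-0.02 ± 0.37) and Cops5 (0.08 ± 0.22) were not called on their brightest probes. The other kept probe of Cdk4 was called lower (-1.19, limma adjusted p = 4.78e-05), as was the mean of both (-0.60, limma adjusted p = 0.0454), while the other probes of Cops5 (-0.07 and -0.98) were not called.

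**Figure D4:**
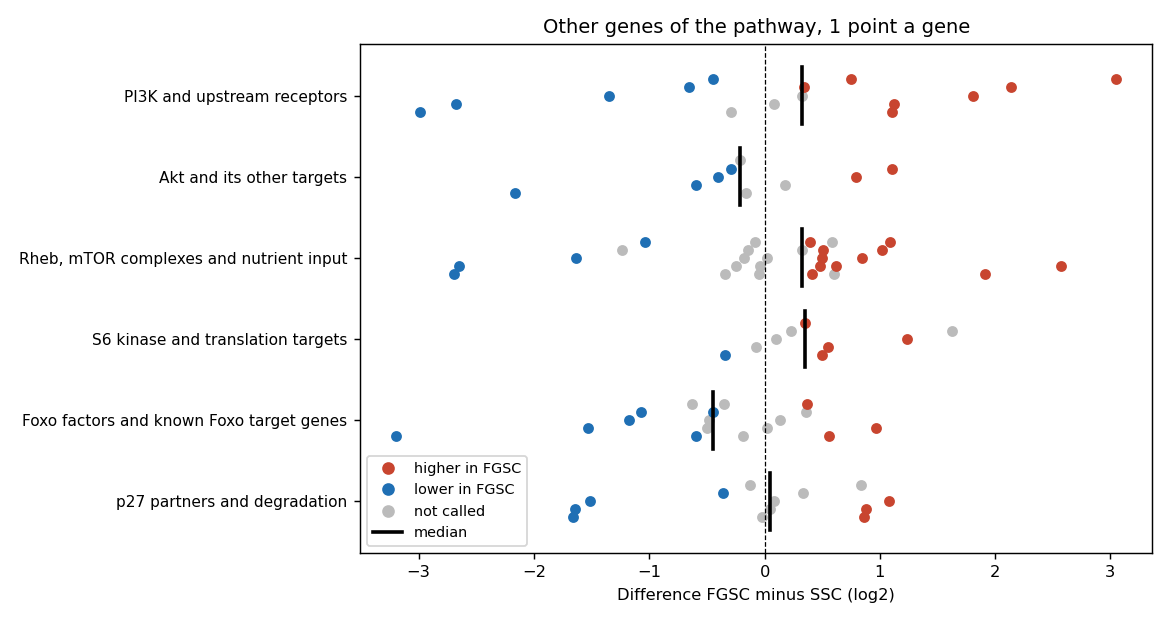
Difference FGSC minus SSC on the log2 scale for each tested gene of the 6 lists, 1 point a gene, red for called higher, blue for called lower and grey for not called. Black bars are list medians, from -0.45 for Foxo factors and targets to 0.35 for S6 kinase and translation targets.

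Over the 6 arrays, the normalized levels of Foxo3 were most like those of Emsy (Pearson r = 0.997), Rab27b, Pcm1, Kcng2 and Pdxk (0.979) among 10627 other genes. Those of Cdkn1b were most like those of Plch2 (0.999), Atg7, Fbxo38, Pkp4 and Mllt3 (0.999). These are descriptions over 6 arrays in 2 groups, so any gene that differs between the groups in the same proportion scores high.

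Markers of the cells that the preparations could hold differed between the groups as well. The signals summed here are normalized linear signals less the offset, over the tested genes of a list. A gene detected in 1 group only could be tested only because of that group, and could hardly come out the other way. Over all genes, 30.9% were called higher and 31.4% lower in FGSC. All 11 tested oocyte genes of 12 were higher in FGSC, where the sum was 33015 to 34193 against 146 to 161 in SSC, and 4 of them, Padi6, Zp1, Oosp1 and Npm2, were detected on no SSC array. Of undifferentiated spermatogonia 10 of 11 markers were tested, 8 lower and 1 higher in FGSC (sum 1035 to 1167 against 2953 to 3605). Lhx1 and Egr4 were detected on no FGSC array, and 3 of the 10 were read from irregular probes. The 1 higher was Pou3f1 (1.04 ± 0.16, limma adjusted p = 0.00168), which made up 28.2 to 39.1% of the FGSC sum. Id4 was not called (-0.51), and its other probe was called higher (0.82, limma adjusted p = 0.000624). Germ cell genes of both sexes counted 4 higher and 3 lower of 9 tested, with a median difference of -0.53 and 3 irregular probes. Their sums were 12543 to 15245 in FGSC and 5639 to 5867 in SSC, and Nanos3 was detected on no FGSC array. Sohlh1 alone made up 73.3 to 74% of the FGSC sum and 38.5 to 43.6% of the SSC sum. Summed signals were lower in FGSC for granulosa genes (292 to 327 against 3308 to 4052, 5 of 6 lower, Amh and Fshr undetected), Sertoli genes (111 to 176 against 558 to 629, 3 of 6 lower and 2 higher, 2 irregular probes, Amh, Gata4 and Dhh undetected), Leydig and theca genes (41.8 to 44.8 against 240 to 291, 3 of 4 lower, all 4 undetected) and peritubular and smooth muscle genes (232 to 261 against 2622 to 2829, 5 of 6 lower, Tagln undetected). The same held for endothelial genes (111 to 120 against 267 to 295, 4 of 8 lower, Cdh5, Emcn and Eng undetected) and for blood and macrophage genes (779 to 1028 against 1935 to 2014, 1 of 3 lower, none undetected). A share of 1 in 3 lower is near that over all genes and is no result about blood cells. Several sums rested on 1 gene, since on the SSC arrays Mylk made up 85.7 to 89.9% of the peritubular sum, Gja1 80.4 to 82.3% of the granulosa sum and Hba-a1 97.6 to 98% of the blood sum. Acta2, another smooth muscle gene, was not called (0.09 ± 0.29). With median scaling the Sertoli list held 5 lower and 0 higher genes, and Sox9 turned from 0.53 on an irregular probe to -1.89, while its other probe showed -1.80 in the setting reported. Amh stood in both the granulosa and the Sertoli list, and the granulosa gene Foxl2 had no kept probe. The granulosa and Sertoli lists therefore do not tell these cell types apart, and the joint list does not tell Leydig from theca cells. The part of any of the listed cell types in the results above was not tested.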

How the data were processed

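RNA of 3 SSC and 3 FGSC samples was measured on 6 Illumina arrays. For each of 45281 probes per array, the authors deposited the signal intensity with its detection p-value, before normalization per the file headers. They also deposited processed intensity values, read here as linear, with a median of 19.9 on SSC replicate 1 and a lowest value of 1.01 over all arrays. Their distributions were not compared between arrays, and their background adjustment, scale and centring are not stated. The processed values served only as an alternative. Per the submitters' processing notes, lumi was used. No column of other samples was used.

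Signals were background-corrected with the normal-exponential model from the detection p-values, offset by 16, normalized by quantiles and log2-transformed (neqc, limma 3.58.1, R 4.3.3). Kept probes (18860 of 45281) were fitted per probe with lmFit and eBayes, FGSC against SSC, with no covariate. The brightest kept probe stood for a gene. Gene symbols came from the platform annotation (34885 probes with 1 gene, 18 with several and 10378 unnamed here), updated through a RefSeq table of GRCm38 by gene ID (34807) or transcript (11), with 67 keeping the older symbol. A probe was irregular (309 probes) where a signal had 9 or more digits or its detection p-value lay more than 0.002 from the running median over probes of like signal. A fold against a group without detection takes each dim array at the higher of its lowest detected signal and the probe's own.

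The genes and lists were chosen with earlier results of these data known. Named in the text are every probe of the 9 genes, the 4 called genes with the largest difference and the 2 brightest uncalled genes of each list, the marker genes detected on all arrays of 1 group only, and the 5 genes most like Foxo3 and Cdkn1b over the arrays. Other genes are named as examples chosen after their values were seen, and the test between probes of a gene was added then too. With 3 arrays against 3, the smallest p of an exact permutation test is 0.1, and that test was left out. The number of arrays limits the precision. The fit was tested on simulated data. Alternatives were 3 other normalizations or sources of values, another offset, 2 other filters, the replicate block, array weights, leaving out irregular probes or each array, and the mean of a gene's probes.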

Additional observations from a re-analysis of the deposited data

How the results depend on the processing

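With median scaling 3146 probes and 1929 genes were called higher, against 5552 and 3281 in the setting reported, and 39% of called genes were higher in place of 49.6%. Of other pathway genes 18 were then higher, in place of 30. Detection at 0.01 on all 6 arrays left 2959 probes, 1918 genes and 12 other pathway genes called lower, in place of 5574, 3337 and 24, with fewer probes tested, and 56% of called genes were higher. Among the 14 probes of the 9 genes, the settings gave 4 to 6 higher and 2 to 3 lower calls. With 1 array left out, 2824 to 3434 genes were higher and 2858 to 3544 lower. Same-numbered replicates did not deviate together (correlations of -0.22, -0.04 and -0.23). These are deviations from means of 3 arrays, so they cannot settle whether same-numbered replicates share a batch. The fit with the replicate block called 2922 genes higher and 2963 lower, and 5 and 2 of the 14 probes. The block added a call for the difference between the Foxo3 probes (limma adjusted p = 0.0495) and for Eif4ebp2 (0.0416). It lost the call for the difference between the dimmest kept Tsc1 probe and the brightest (limma adjusted p = 0.0643). Calls were also lost for Pdcd4 (limma adjusted p = 0.0602) and for the 1 lower gene of the S6 kinase list.

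The Tsc1 probe ILMN_2584614, uncalled throughout, turned to -0.099 with median scaling, -0.0020 with the processed values and -0.0742 with array weights, and ran from -0.0858 to 0.0589 with 1 array left out. The difference between the Tsc2 probes ran from -0.0656 to 0.0293 with 1 array left out. Where another probe of a gene became the brightest, Sgk3 gave 1.28 and Ccnd2 0.91 with the stricter filter, and Cops5 gave -0.48 without background correction and -0.69 with an offset of 50. The turns of Sgk3 and Ccnd2 with 1 array left out were also read from another probe. The cause of the other turns was not tested. With median scaling Eif4a1 gave -0.0176. With the mean of a gene's probes Eif4a1 gave -0.13, Cops5 -0.32, Flcn 0.21 and Gadd45a 0.20. With array weights Sod2 gave 0.0212 and Cdk4 0.0922.

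With 1 array left out, Sgk3 ran from -2.225 to 1.45 and Ccnd2 from -1.90 to 0.98, and their positive values were read from another probe. In the same settings Cdk4 ran from -0.45 to 0.30, Cops5 from -0.10 to 0.34 and Pkn2 from -0.37 to 0.0625. Flcn ran from -0.31 to 0.10 and Sod2 from -0.93 to 0.22. Signals close to the negative controls limit what can be said of Akt1 and of the dimmest Foxo3 and Tsc1 probes.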
